A study of Mus musculus with 21 samples.

Results

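The haematopoietic cytokine receptors are followed here through 9 genes: Epor, Flt3, Csf1r, Csf2ra, Csf2rb, Csf2rb2, Csf3r, Il3ra and Il6ra. They were chosen by name and not by their levels. A probe was taken for a receptor when the RefSeq accession printed for it on the array maps to the symbol of that receptor. The 9 genes had 14 such probes of the 41174 on the array, and each gene was read from its brightest probe. All 9 were among the 14315 genes with a probe bright enough to be tested.

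The receptors were measured in 7 fractions sorted from C57BL/6 mouse bone marrow, on 3 arrays for each fraction and 21 in all. KLS, the multipotent fraction, was sorted as lin-, ckit+ and sca1+. The erythroid fractions are PreMegE, CFUe and Ter119, from early to late, and the myeloid ones are PreGM, GMP and Mac1Gr1. The labels give the intermediate progenitor fractions the lin-, ckit+ and sca1+ antigens of KLS as well. To these they add CD150+, CD105- and FGCrI/II- for PreMegE, CD150- and FCGrI/II+ for GMP, and CD150-, CD105- and FCGrI/II- for both CFUe and PreGM, so that the label text does not separate the last pair. Ter119 cells were CD71+ and Ter119+, and Mac1Gr1 cells were Mac1+ and Gr1+. No fraction was treated, and the labels name no allele. Nothing in the labels says whether the 3 arrays of a fraction came from separate mice, so the p values measure the spread between arrays, which may be technical. These were bulk samples, in which fewer cells of a type and less RNA per cell cannot be told apart.

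Cytokine receptors carry the signals by which blood progenitors survive, divide and mature. Epor is the receptor for erythropoietin, which erythroid progenitors need to survive. Flt3, the receptor for Flt3 ligand, and Csf1r, the receptor for macrophage colony-stimulating factor, are receptor tyrosine kinases. The others are type I cytokine receptors, which have no kinase of their own and signal through JAK kinases and STAT factors. Csf2ra and Il3ra are the ligand-binding alpha chains for GM-CSF and IL-3. Csf2rb encodes the beta chain that the IL-3, IL-5 and GM-CSF receptors share, and Csf2rb2 is its near copy in the mouse, a beta chain used by IL-3. Csf3r is the receptor for granulocyte colony-stimulating factor. Il6ra binds IL-6 and signals through Il6st, known as gp130.

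Levels are log2 intensities from which the array's own 75th percentile was subtracted, so that 0 is that percentile. Levels on this scale are compared between fractions for a probe, and never between probes. For each of the 21 arrays the most similar other array was of its own fraction, and between 56.4% and 77.4% of probes on an array were well above background. The labelled fractions were checked against marker lists. The summed level of 9 erythroid genes was 11.80 to 12.12 in Ter119 and 3.20 to 3.65 in Mac1Gr1, whereas that of 12 granulocytic genes was 12.10 to 12.43 in Ter119 and 12.24 to 12.42 in Mac1Gr1. On this scale the Ter119 arrays thus held granulocytic transcripts as high as the Mac1Gr1 arrays did. The likeness depends on the scaling, since scaling to the spike-in RNAs moved the median of all probes in Ter119 vs Mac1Gr1 from 0.06 to -0.67. The granulocytic sum was 2.68, 2.54 and 5.49 on CFUe arrays 1, 2 and 3, so that array 3 stood above the others. Ly6a, which encodes the sca1 antigen, had means of -3.14 in PreMegE and -5.81 in CFUe against 2.57 in KLS, although the labels call those fractions sca1+. Eng, which encodes CD105, had a mean of 2.47 in CFUe. The X-inactivation transcript Xist was low on all KLS, PreMegE and Ter119 arrays and high on all GMP and Mac1Gr1 arrays. It was 4.91, 5.09 and -4.47 on the CFUe arrays and likewise low only on PreGM array 3, so that the sex-chromosome transcripts cannot be told apart from the fraction in part of the comparisons.

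**Figure D1:**
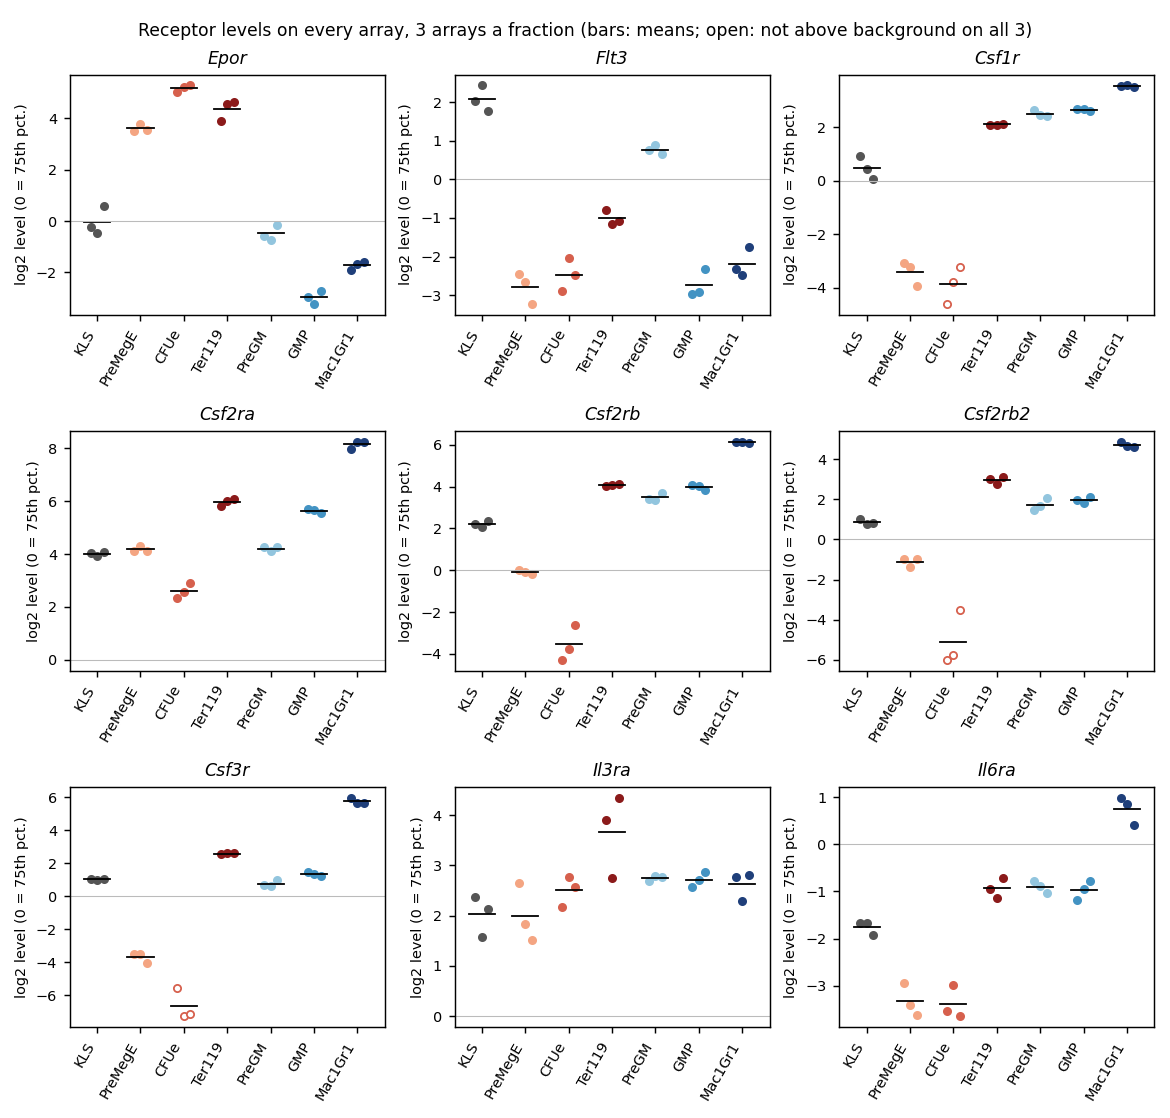
Level of each receptor on every array, as log2 intensity relative to the 75th percentile of the array, in the 7 fractions (3 points per fraction, bars for means). Open points mark fractions in which fewer than 3 arrays were well above background. Epor is high in the 3 erythroid fractions, while 6 of the receptors have their lowest mean in CFUe and 6 their highest in Mac1Gr1.

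At the first erythroid step, from KLS to PreMegE, Epor rose 12.7-fold and 6 receptors fell: Flt3, Csf1r, Csf2rb, Csf2rb2, Csf3r and Il6ra. The falls ranged from 29.1-fold for Flt3 to 2.98-fold for Il6ra. Csf2ra (0.17 ± 0.13, log2 difference ± SE, adjusted p 0.3767) and Il3ra (-0.03 ± 0.34, adjusted p 0.9604) were not called. A gene was called when its limma adjusted p was under 0.05 and it differed 2-fold or more. By this measure 3.55% of the 29532 probes tested were higher in PreMegE and 8.86% lower. The median difference was -1.97 over the 9 receptors and 0.13 over all probes tested. The summed level of 10 macrophage genes also fell over this step, from between 4.71 and 6.21 on the KLS arrays to between -1.13 and 0.01, and each of the 10 genes was called lower. Its part in the result was not tested.

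At the second erythroid step, from PreMegE to CFUe, Epor rose a further 2.93-fold, and Csf2ra, Csf2rb, Csf2rb2 and Csf3r fell. Of all probes tested, 9.96% were called higher and 14.7% lower. Flt3, Csf1r, Il3ra and Il6ra were not called. The median difference was -0.46 over the receptors, also with Csf3r at its bound, and 0.12 over all probes. The 4 falling receptors lost between 2.99-fold (Csf2ra) and 16.0-fold (Csf2rb2), with Csf3r at least 2.29-fold lower because no CFUe array measured it above background. The same 5 receptors were called without CFUe array 3.

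At the last erythroid step, from CFUe to Ter119, 8 receptors rose and Epor did not change beyond 2-fold (-0.81 ± 0.25, adjusted p 0.0066). Changes were common at this step, and 29.2% of all probes were called higher and 28% lower. Csf3r was at least 176-fold higher, Csf2rb2 267-fold, Csf2rb 199-fold and Csf1r 63.1-fold, with 1 CFUe array above background for Csf2rb2 and 2 for Csf1r. Without CFUe array 3 the rise of Csf2rb2 was 8.84 in place of 8.06 on the log2 scale. The median was 3.37 against 0.05 over all probes. Scaling the arrays to the spike-in RNAs left 6 receptors called higher and 1, Epor, called lower, and turned Il3ra to -0.23. The marker lists moved with the receptors. All 12 granulocytic genes, 9 of 10 macrophage genes, 8 of 8 B cell genes and 6 of 6 T cell genes were called higher in Ter119, and the part of such transcripts in the receptor values was not tested.

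On the myeloid side the early steps moved fewer receptors. From KLS to PreGM, Csf1r rose 4.08-fold and Csf2rb 2.41-fold, and Flt3 fell 2.49-fold. Of all probes, 2.11% were called higher and 6.53% lower at this step. The median was 0.72 over the receptors and 0.06 over all probes, and with spike-in scaling 1 receptor was called higher and 2 lower. The macrophage sum fell here to between -0.25 and 0.06 on the PreGM arrays, with all 10 genes called lower, and the granulocytic sum went from between 7.53 and 8.09 to between 9.71 and 10.02. Their part in the result was not tested. From PreGM to GMP, Csf2ra rose 2.70-fold, while Epor fell 5.62-fold and Flt3 11.3-fold. Here 4.01% of probes were called higher and 6.36% lower, and the medians were 0.14 and -0.02. Once arrays were scaled to the spike-in RNAs, 5 receptors were higher and 2 lower. The erythroid sum was between 1.38 and 2.04 in PreGM and between -0.45 and 0.12 in GMP, and its part in the Epor value was not tested.

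At the last myeloid step, from GMP to Mac1Gr1, Csf3r rose 21.4-fold, Csf2rb2 6.76-fold, Csf2ra 5.74-fold, Csf2rb 4.46-fold, Il6ra 3.30-fold and Epor 2.38-fold. As at the last erythroid step, changes were common, with 29.1% of all probes called higher and 27.6% lower. The median was 1.72 over the receptors and 0.17 over all probes. These rises depended on the scaling. With spike-in scaling the median of all probes moved from 0.17 to -1.86, Csf3r alone was still called higher (2.38, adjusted p 2.19e-05), and Flt3 (-1.48), Csf1r (-1.15) and Il3ra (-2.12) were called lower. Csf2ra, Csf2rb, Csf2rb2 and Il6ra came to 0.49, 0.12, 0.72 and -0.31 and were not called. This scaling moves all probes of an array by the same amount. The marker lists moved over this step as well. From GMP to Mac1Gr1 the summed level went from between -0.45 and 0.12 to between 3.20 and 3.65 for the erythroid genes, of which 7 of 9 were called higher. It went from between 10.48 and 10.65 to between 12.24 and 12.42 for the granulocytic genes and from between 2.89 and 3.11 to between 4.18 and 4.40 for the macrophage genes. B cell genes went from between 3.13 and 3.36 to between 4.67 and 5.50, and T cell genes from between -0.97 and -0.27 to between 2.70 and 3.05. The part of such transcripts in the receptor values was not tested.

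**Figure D2:**
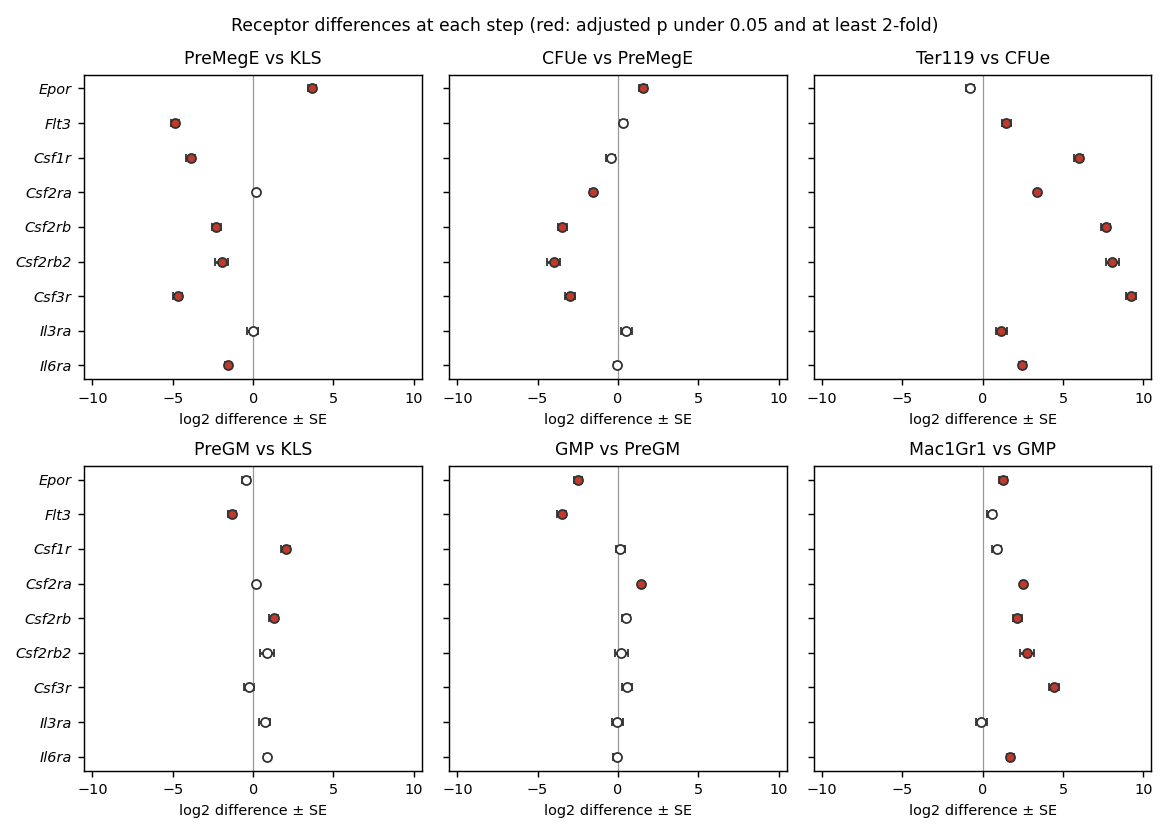
Fitted log2 difference (x axis) with its SE for each receptor at the 3 erythroid steps (upper row) and the 3 myeloid steps (lower row), with filled points for receptors called. Differences of Csf3r from CFUe are fitted values, for which only a bound is known. Of the 9 receptors, 8 lie to the right at Ter119 vs CFUe, where Il3ra turns to -0.23 with spike-in scaling, and 6 filled points lie to the right at Mac1Gr1 vs GMP, of which Epor and Il6ra turn to -0.78 and -0.31.

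The erythroid and myeloid fractions were also set against each other at matched stages. In PreMegE against PreGM, 1 receptor (Epor) was higher and 6 were lower, beside 5.81% and 6.23% of all probes, with medians of -2.84 and 0.03. In CFUe against GMP, Epor was again higher and 6 receptors were lower, beside 12.1% and 14.2% of all probes, with medians of -3.03 and 0.22. In Ter119 against Mac1Gr1 all 9 were called. Epor, Flt3 and Il3ra were higher and the other 6 lower, beside 22% and 19.9% of all probes, with medians of -1.68 and 0.06. With spike-in scaling Epor alone was called higher in Ter119 and 6 receptors were called lower. The 3 comparisons of each lineage share fractions with the steps above and are not independent of them.

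**Figure D3:**
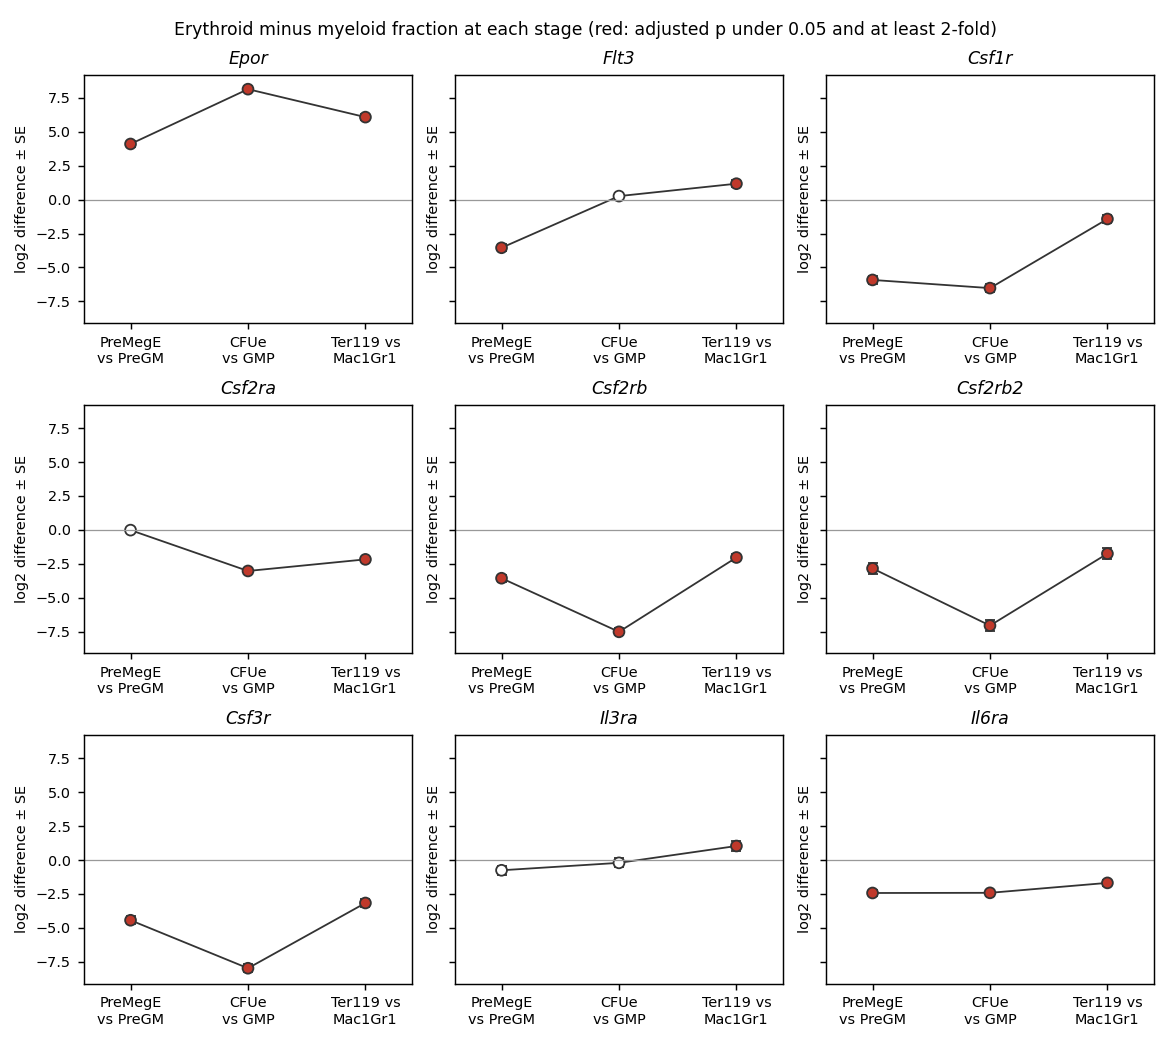
Fitted log2 difference (y axis, ± SE) between the erythroid and the myeloid fraction at 3 stages for each receptor, with filled points for those called. Epor lies above 0 at each stage, and Csf1r, Csf2rb, Csf2rb2, Csf3r and Il6ra lie below 0 at each. The CFUe point of Csf3r is a fitted value, for which only a bound is known.

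Epor was the receptor of the erythroid side. Its level was -0.22, -0.48 and 0.58 on the KLS arrays, 3.52, 3.79 and 3.55 in PreMegE, 5.01, 5.23 and 5.28 in CFUe and 3.91, 4.55 and 4.62 in Ter119. Among the myeloid fractions it was -0.56, -0.74 and -0.14 in PreGM, -2.95, -3.22 and -2.74 in GMP and -1.90, -1.66 and -1.60 in Mac1Gr1. Every erythroid array thus stood above every KLS and myeloid array, and KLS and PreGM overlapped. Epor was well above background on all 21 arrays. It was 283-fold higher in CFUe than in GMP (8.15 ± 0.25, adjusted p 7.07e-14), 67.9-fold higher in Ter119 than in Mac1Gr1 and 17.2-fold higher in PreMegE than in PreGM. The low GMP level and the higher Mac1Gr1 level differed by 1.25 ± 0.25 (adjusted p 0.000194), a difference that turned to -0.78 with spike-in scaling. In Ter119 the Epor level was below that of CFUe on every array, and the difference of -0.81 depended on the processing. It passed 2-fold under a normexp background correction (-1.05), with a block for sex-chromosome transcripts (-1.04) and with spike-in scaling (-2.20). It shrank to -0.38 with quantile scaling (limma adjusted p 0.1312) and to -0.44 in the series table (limma adjusted p 0.0801).

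The stretch of 250 bases before the start of Epor is shown because only Epor was called higher at the first and second erythroid steps. It lies at chr9:21963577-21963826 on the minus strand of GRCm38.p6 and comes from RefSeq, as do the other upstream stretches below. Capitals mark a GATA word (GATA with A or T before it and A or G after it, on either strand) 54 to 49 bases before the start and a GC box (GGGCGG on either strand) 26 to 21 bases before it.
Epor: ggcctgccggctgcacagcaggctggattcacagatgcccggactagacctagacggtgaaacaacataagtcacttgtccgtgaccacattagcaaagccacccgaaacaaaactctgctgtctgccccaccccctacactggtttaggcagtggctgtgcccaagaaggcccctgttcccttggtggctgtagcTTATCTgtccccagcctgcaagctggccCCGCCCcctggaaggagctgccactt
Of 32851 upstream windows of this length in RefSeq, 26.5% held a GATA word and 32.7% a GC box. These letters are a description of the sequence, and no binding was measured at them.

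Flt3 marked the multipotent end. It read 2.05, 2.44 and 1.77 in KLS and 0.77, 0.89 and 0.65 in PreGM. In PreMegE it was -2.45, -2.67 and -3.22, in CFUe -2.89, -2.05 and -2.49 and in GMP -2.98, -2.91 and -2.32. Mac1Gr1 arrays gave -2.33, -2.47 and -1.75, and Ter119 arrays gave -0.79, -1.15 and -1.08. All KLS arrays were above all others, all PreGM arrays came next, and PreMegE, CFUe, GMP and Mac1Gr1 overlapped at the bottom. Flt3 was 11.7-fold lower in PreMegE than in PreGM (-3.55 ± 0.26, adjusted p 2.52e-08). The loss therefore came at the first step on the erythroid side and, for the larger part, at the second step on the myeloid side, where GMP was below PreGM by 3.50 ± 0.26. The difference between CFUe and GMP was 0.26 ± 0.26 (adjusted p 0.42), a value that turned to -1.11 with spike-in scaling. Ter119 was above Mac1Gr1 by 1.18 ± 0.26 (adjusted p 0.000801), which fell under 2-fold, to 0.89, with normexp background correction. With spike-in scaling this difference was 0.45 (limma adjusted p 0.2309). The rise from CFUe to Ter119, 1.47 ± 0.26, came to 0.07 with that scaling (limma adjusted p 0.8357), and neither was called.

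Csf1r, the receptor that macrophage progenitors depend on, was high in every myeloid fraction and in Ter119. It was 2.67, 2.45 and 2.42 in PreGM, 2.67, 2.69 and 2.60 in GMP and 3.54, 3.57 and 3.50 in Mac1Gr1. In KLS it was 0.94, 0.45 and 0.07, in PreMegE -3.07, -3.22 and -3.93 and in CFUe -4.59, -3.80 and -3.21, with 2 of the 3 CFUe arrays well above background. Ter119 arrays gave 2.10, 2.10 and 2.14. PreMegE and CFUe overlapped and lay below KLS on every array, while PreGM and GMP overlapped above it. Csf1r was 60.5-fold lower in PreMegE than in PreGM (-5.92 ± 0.28, adjusted p 1.95e-10) and 91.9-fold lower in CFUe than in GMP (-6.52 ± 0.28, adjusted p 4.79e-12). In Ter119 it was 2.69-fold lower than in Mac1Gr1 (-1.43 ± 0.28, adjusted p 0.000272), a call lost once slides were fitted as blocks (-0.73, adjusted p 0.0615). Mac1Gr1 was above GMP by 0.88 ± 0.28, which was under 2-fold (adjusted p 0.0090) and turned to -1.15 with spike-in scaling. Csf1r had another 2 probes. Their differences had the same sign wherever the brightest probe was called, with 2.75 and 3.80 for Ter119 vs CFUe and -3.75 and -3.56 for CFUe vs GMP, although the dimmest probe did not pass 2-fold for Ter119 vs Mac1Gr1 (-0.95).

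Csf2ra, the alpha chain for GM-CSF, did not part the early fractions. It was 4.04, 3.94 and 4.07 in KLS, 4.14, 4.33 and 4.10 in PreMegE and 4.27, 4.10 and 4.26 in PreGM. It was 2.33, 2.59 and 2.91 in CFUe and 5.84, 6.02 and 6.09 in Ter119. It was 5.69, 5.67 and 5.55 in GMP and 7.99, 8.24 and 8.26 in Mac1Gr1. PreMegE and PreGM overlapped, with a difference of -0.02 ± 0.13 (adjusted p 0.9428) whose sign turned with the scaling (0.05 with quantile scaling, 0.13 with spike-in scaling), and KLS lay close below them. All CFUe arrays were below every other array and all Mac1Gr1 arrays above. From GMP to Mac1Gr1 Csf2ra rose by 2.52 ± 0.13 (adjusted p 1.9e-11), which was 0.49 and not called with spike-in scaling. CFUe was 8.18-fold below GMP (-3.03 ± 0.13, adjusted p 6.49e-12).

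The beta chains Csf2rb and Csf2rb2 followed the same order of fractions. Csf2rb was 2.21, 2.07 and 2.36 in KLS, 0.03, -0.08 and -0.19 in PreMegE, -4.29, -3.74 and -2.62 in CFUe and 4.04, 4.10 and 4.13 in Ter119. It was 3.40, 3.35 and 3.70 in PreGM, 4.06, 4.01 and 3.84 in GMP and 6.15, 6.15 and 6.08 in Mac1Gr1. CFUe lay lowest and Mac1Gr1 highest on every array, and Ter119 and GMP overlapped. Csf2rb2 was 1.01, 0.79 and 0.82 in KLS, -0.96, -1.37 and -0.96 in PreMegE, -6.01, -5.74 and -3.54 in CFUe and 3.01, 2.78 and 3.11 in Ter119. It was 1.46, 1.69 and 2.07 in PreGM, 1.96, 1.81 and 2.12 in GMP and 4.88, 4.66 and 4.62 in Mac1Gr1. Only 1 of the 3 CFUe arrays, array 3, measured Csf2rb2 well above background, and it was also the CFUe array with the highest granulocytic sum. The same array had the highest B cell sum of the CFUe arrays (1.35 against -0.85 and -0.61) and the low Xist level. Csf3r, however, was not well above background on it. The part of these in the Csf2rb2 value was not tested. Without array 3, Csf2rb2 was lower in CFUe than in PreMegE by -4.77 in place of -4.00 and than in GMP by -7.84 in place of -7.06. Csf2rb was 183-fold lower in CFUe than in GMP (-7.52 ± 0.27, adjusted p 5.14e-13) and 11.8-fold lower in PreMegE than in PreGM (-3.57 ± 0.27, adjusted p 2.96e-08). For Csf2rb2 these differences were -7.06 ± 0.42 (133-fold, adjusted p 2.69e-10) and -2.84 ± 0.42 (7.17-fold, adjusted p 5.99e-05). Once slides were fitted as blocks, Csf2rb2 was no longer called in PreMegE vs KLS (-1.20, adjusted p 0.2252) or Ter119 vs Mac1Gr1 (-1.04, adjusted p 0.1533). With spike-in scaling the rises from GMP to Mac1Gr1 of Csf2rb (2.16 ± 0.27) and Csf2rb2 (2.76 ± 0.42) came to 0.12 and 0.72 and were not called.

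The 3 Csf2rb probes did not read alike. The dimmest ordered the 3 erythroid and the 3 myeloid fractions as the brightest did, and was called in the same direction in each of the 8 comparisons in which the brightest was called. The second brightest was -0.99, -0.73 and -1.06 in CFUe, -1.08, -1.14 and -0.53 in GMP and -0.95, -1.89 and -1.93 in PreMegE, so that these fractions overlapped. It gave -0.01 ± 0.27 for CFUe vs GMP (adjusted p 0.9731) and 0.67 ± 0.27 for CFUe vs PreMegE (adjusted p 0.0477), the opposite sign to the brightest probe. It was called for Ter119 vs CFUe (2.35 ± 0.27, adjusted p 4.11e-07) and Mac1Gr1 vs GMP (2.14 ± 0.27, adjusted p 1.34e-06) alone. The low Csf2rb level of CFUe thus rests on 2 of the 3 probes. Csf2rb and Csf2rb2 are near copies, and whether their probes read each other's transcripts was not tested.

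**Figure D4:**
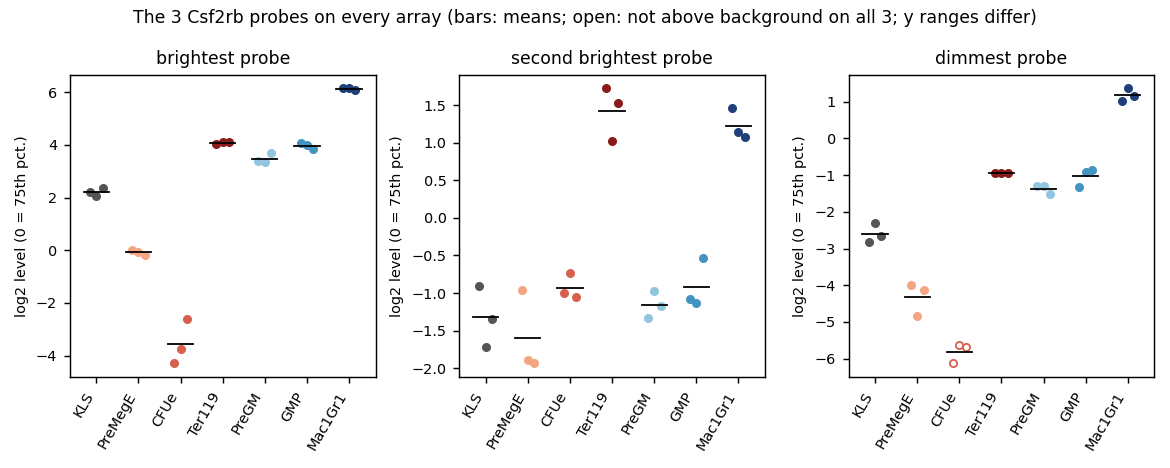
Level of the 3 Csf2rb probes on every array (y axis, log2 intensity relative to the 75th percentile of the array, with its own range in each panel; bars are means, open points fractions with fewer than 3 arrays above background). The brightest and the dimmest probe are lowest in CFUe, whereas the second brightest is -0.99, -0.73 and -1.06 there and stands out only in Ter119 and Mac1Gr1.

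The upstream stretch of Csf2rb2 is shown because it moved with Csf3r across the fractions. It covers 250 bases at chr15:78305722-78305971 on the minus strand of GRCm38.p6. Capitals mark a GATA word 38 to 33 bases before the start and the letters GAGGAA, read on the opposite strand, 167 to 162 bases before it.
Csf2rb2: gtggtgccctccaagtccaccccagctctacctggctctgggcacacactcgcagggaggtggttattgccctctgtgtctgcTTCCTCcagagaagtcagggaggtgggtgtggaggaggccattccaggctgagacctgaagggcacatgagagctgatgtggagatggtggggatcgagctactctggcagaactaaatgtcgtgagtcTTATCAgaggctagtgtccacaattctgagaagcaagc
GAGGAA, the core of a motif of the ETS factor PU.1, was present in 23.3% of the upstream windows on either strand. No upstream window was matched for Csf2rb.

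Csf3r was highest in Mac1Gr1 and lay at background in CFUe. It was 1.08, 0.98 and 1.04 in KLS, -3.49, -3.48 and -4.04 in PreMegE, -5.55, -7.25 and -7.11 in CFUe and 2.56, 2.60 and 2.62 in Ter119. It was 0.70, 0.63 and 0.98 in PreGM, 1.47, 1.34 and 1.22 in GMP and 5.96, 5.66 and 5.66 in Mac1Gr1. No CFUe array was well above background. KLS and PreGM overlapped, and all other neighbouring fractions were separate. Csf3r was 26.1-fold lower in PreMegE than in KLS (-4.70 ± 0.31, adjusted p 4.5e-09), 21.7-fold lower than in PreGM (adjusted p 1.18e-08) and in CFUe at least 73.9-fold lower than in GMP (adjusted p 1.16e-12). For a fraction at background, a fold was taken against the lowest signal well above background on its arrays. An adjusted p beside such a fold belongs to the fitted difference and does not test the bound. The fall from PreMegE to CFUe, at least 2.29-fold (adjusted p 4.67e-07), was -0.47 and not called with normexp background correction. The difference between PreGM and KLS was -0.27 ± 0.31 (adjusted p 0.586) and that between GMP and PreGM 0.57 ± 0.31 (adjusted p 0.1921). Ter119 stood between GMP and Mac1Gr1 and was 8.97-fold below the latter (-3.17 ± 0.31, adjusted p 1.12e-07).

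The upstream stretch of Csf3r is given for comparison with those of Epor and Csf2rb2. Its 250 bases lie at chr4:126024409-126024658 on the plus strand of GRCm38.p6. The RefSeq window ends at a start 1218 bases inside the gene, so that the stretch lies upstream of 1 transcript start and not of the outermost one. Capitals mark GAGGAA 86 to 81 bases before that start, and the stretch held neither a GATA word nor a GC box.
Csf3r: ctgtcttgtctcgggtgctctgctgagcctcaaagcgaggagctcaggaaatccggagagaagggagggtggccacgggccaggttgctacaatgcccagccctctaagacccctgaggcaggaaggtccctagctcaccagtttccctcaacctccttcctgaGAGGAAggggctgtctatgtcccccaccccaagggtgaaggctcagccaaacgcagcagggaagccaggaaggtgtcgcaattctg
The window starts of Il3ra and Csf2ra likewise lay 583 and 43 bases inside the gene. Among the 7 receptors with an upstream window, a GATA word was found for Epor, Csf2rb2, Il3ra and Il6ra, and GAGGAA for Csf2ra, Csf2rb2, Csf3r and Il6ra.

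Il3ra, the alpha chain for IL-3, was the receptor that varied least. It was 2.37, 1.58 and 2.13 in KLS, 2.64, 1.83 and 1.52 in PreMegE, 2.17, 2.77 and 2.56 in CFUe and 3.90, 2.75 and 4.34 in Ter119. It was 2.69, 2.80 and 2.76 in PreGM, 2.56, 2.70 and 2.86 in GMP and 2.77, 2.29 and 2.81 in Mac1Gr1. All neighbouring fractions overlapped, and the means spanned 1.67. Il3ra was called in 2 comparisons, both with overlapping arrays: Ter119 vs CFUe (1.16 ± 0.34, adjusted p 0.0055) and Ter119 vs Mac1Gr1 (1.04 ± 0.34, adjusted p 0.0136). The first turned to -0.23 with spike-in scaling and was not called with normexp background correction (0.99), without CFUe array 1 or without Ter119 array 3 (0.82). The second was not called without Ter119 array 1 (0.92), Ter119 array 3 (0.70) or Mac1Gr1 array 2 (0.87). Nor was the second called with spike-in scaling (0.31), normexp (0.91), slides fitted as blocks (0.95), the block for sex-chromosome transcripts (0.99, adjusted p 0.1162) or a fit of Ter119 and Mac1Gr1 alone (adjusted p 0.0569).

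Il6ra moved as the myeloid receptors did, over a smaller range. It was -1.66, -1.66 and -1.93 in KLS, -2.95, -3.41 and -3.62 in PreMegE, -3.53, -3.00 and -3.65 in CFUe and -0.94, -1.15 and -0.72 in Ter119. It was -0.77, -0.89 and -1.03 in PreGM, -1.18, -0.96 and -0.79 in GMP and 0.99, 0.85 and 0.41 in Mac1Gr1. PreMegE and CFUe overlapped, as did PreGM, GMP and Ter119, and Mac1Gr1 lay above all others. It was 5.38-fold lower in PreMegE than in PreGM (-2.43 ± 0.20, adjusted p 1.22e-07), 5.34-fold lower in CFUe than in GMP (-2.42 ± 0.20, adjusted p 2.93e-08) and 3.21-fold lower in Ter119 than in Mac1Gr1 (-1.68 ± 0.20, adjusted p 1.72e-06). The rise from GMP to Mac1Gr1 (1.72 ± 0.20) turned to -0.31 with spike-in scaling. The other Il6ra probe was called in the same comparisons and directions.

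Whether a step differed between the lineages was tested as the erythroid change minus the myeloid change. For the second step 2 receptors had a higher erythroid change and 4 a lower one, beside 8.38% and 11.8% of all probes. Epor rose on the erythroid side and fell on the myeloid side, a difference of 4.04 ± 0.35 (adjusted p 1.72e-07). Flt3 fell on the myeloid side and was not called on the erythroid side (3.81 ± 0.37, adjusted p 6.43e-07). For Csf2ra the difference was -3.01 ± 0.19 (adjusted p 5.14e-09), with a fall in CFUe and a rise in GMP. Csf2rb (-3.95), Csf2rb2 (-4.22) and Csf3r (-3.54) fell in CFUe and were not called in GMP. For the third step 5 receptors had a higher erythroid change and 1 a lower one, beside 20.9% and 19% of all probes. Epor was the lower one (-2.06 ± 0.35, adjusted p 8.66e-05), and the others were Csf1r (5.10), Csf2rb (5.48), Csf2rb2 (5.30), Csf3r (4.81) and Il3ra (1.24, adjusted p 0.0387). That of Il3ra was not called with the block for sex-chromosome transcripts (1.21, adjusted p 0.0814), with no filter on dim probes (adjusted p 0.0579), in a fit of the compared fractions alone (adjusted p 0.0547) or without several single arrays. Values of Csf3r that involve CFUe are fitted values from signals at background.

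Arrays of different fractions shared slides, which gave 45 differences within a slide for the receptors and the comparisons listed. Of the 30 that belong to called differences, 30 had the direction of the call. The pairs are of the same arrays that gave the calls. Except for Il3ra in Ter119 vs CFUe, the arrays of the fractions did not overlap. The direction of a pair was thus fixed by the call and is no separate check of slides. No comparison with KLS or Mac1Gr1 had such a pair. For Epor the within-slide differences were 1.71 for CFUe vs PreMegE, 4.36 and 3.69 for PreMegE vs PreGM and -2.39 for GMP vs PreGM. For Csf2rb they were -3.77 for CFUe vs PreMegE, 8.42 for Ter119 vs CFUe and -3.48 and -3.89 for PreMegE vs PreGM.

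Over the 21 arrays, which hold 3 arrays of each fraction and so are not independent points, Csf2rb and Csf2rb2 correlated at 0.991, Csf2rb and Csf3r at 0.967 and Csf1r and Il6ra at 0.944. Epor correlated negatively with each of these, from -0.627 with Csf2rb2 to -0.731 with Csf1r, and Il3ra correlated with no other receptor above 0.434. Among 14314 genes, the ones whose levels were most like Epor were Klf1 (0.987), an erythroid transcription factor, Ermap (0.984), an erythroid membrane protein, and Slc38a5 (0.983), an amino acid transporter. For Flt3 they were Sgsm1 (0.962), Fgd5 (0.934), a gene used to mark stem cells, and Sbspon (0.927). For Csf1r they were Crybg3 (0.982), Hk3 (0.978), a myeloid hexokinase, and Baiap3 (0.975). Rab3d (0.994), S100a11 (0.989) and Tesk2 (0.987) were most like Csf2ra. Nat8l (0.996) and Arl11 (0.992) were most like Csf2rb, and Ckap4 (0.996), Ncf4 (0.995), a subunit of the phagocyte oxidase, and Nat8l (0.994) most like Csf2rb2. Cfp (0.986), which encodes properdin, Pik3r5 (0.985) and Ano10 (0.984) were most like Csf3r, and Rab11fip4 (0.976), Ifnar2 (0.971), an interferon receptor chain, and Nfil3 (0.961) most like Il6ra. The likeness was weaker for Il3ra, with Ly6k (0.831), Oscar (0.827) and Ago4 (0.812).

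The receptors were set beside 23 other cytokine receptor genes, of which 22 had a probe and 19 were tested. At the second erythroid step 1 of the 19 rose and 9 fell (10 fell with spike-in scaling), beside 9.96% and 14.7% of all probes. At the last 12 rose and 1 fell (9 and 6 with spike-in scaling), beside 29.2% and 28%. Their medians at these steps, with genes at background set to their bound, were -0.90 and 1.97. At the last myeloid step 7 rose and 5 fell, beside 29.1% and 27.6% of all probes, or 2 and 11 with spike-in scaling. The shares of all probes are of the main scaling and do not apply to the spike-in counts. With spike-in scaling the median of all probes was -0.40, -1.35 and -1.86 at these steps in turn. Tek, a receptor for angiopoietins, rose by 1.81 ± 0.26 in PreMegE over KLS and was at least 19.6-fold lower in CFUe than in PreMegE, in the same directions with spike-in scaling. Il6st, the chain through which Il6ra signals, was 33.9-fold lower in CFUe than in GMP (-5.08 ± 0.24, adjusted p 1.95e-11), with 1 of the 3 CFUe arrays well above background. From GMP to Mac1Gr1, where Il6ra rose, Il6st fell by 1.66 ± 0.24 (adjusted p 9.72e-06), and with spike-in scaling the pair gave -0.31 and -3.69. Il4ra, the alpha chain for IL-4, fell by 1.60 in CFUe against PreMegE and rose by 4.09 in Ter119 against CFUe. As for the 9 receptors, the part of granulocytic and B cell transcripts in the Ter119 values of this list was not tested.

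**Figure D5:**
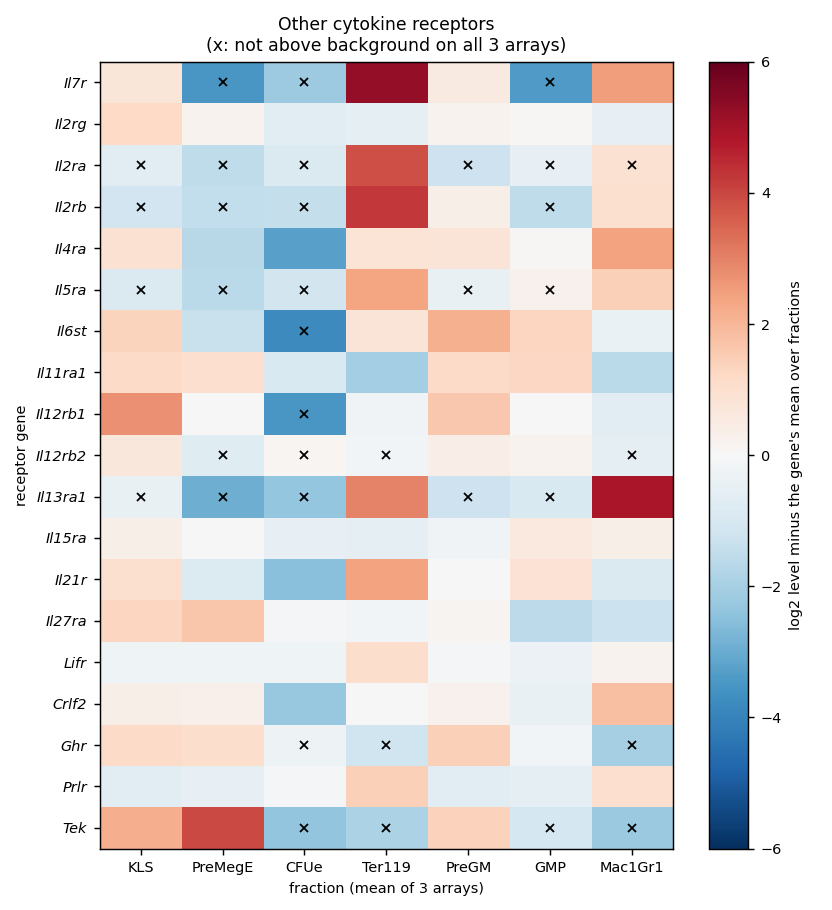
Mean level of the 19 tested other cytokine receptors (rows) in the 7 fractions (columns), as log2 minus the mean of the same gene over fractions, in colour from blue (lower) to red (higher). Crosses mark fractions in which fewer than 3 arrays were well above background. Il4ra is highest in Mac1Gr1, at a mean level of 3.26, and lowest in CFUe, at -2.44.

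Of 11 ligands of these receptors 5 were tested, since the others were not well above background on all arrays of any fraction. Csf1, the ligand of Csf1r, was 3.06, 2.64 and 2.89 in Ter119 against -4.97, -4.90 and -5.22 in CFUe, a rise of 7.89 ± 0.14 (adjusted p 2.79e-16) that was 6.50 with spike-in scaling. Only 1 of the 3 CFUe arrays measured Csf1 well above background. The part in this rise of the granulocytic and B cell transcripts, which were also higher in Ter119, was not tested. Il6 was at least 8.94-fold higher in PreMegE than in KLS, where no array measured it above background, and was higher with spike-in scaling as well.

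Of 20 signal transducers none was called in PreGM vs KLS, by limma, beside 2.11% of all probes called higher and 6.53% lower. Of the 20, 5 had an unadjusted limma p under 0.05, for which no share of all probes is given. In PreMegE vs KLS, Jak2, the kinase that Epor uses, rose 2.15-fold and Stat5a, a STAT factor downstream of it, by 1.07 ± 0.14 on the log2 scale, while Jak3 fell by 1.75. With spike-in scaling Jak2 was 0.63 and Stat5a 0.59, and neither was called. In CFUe 7 of the 20 were lower than in PreMegE, beside 14.7% of all probes under the main scaling. With spike-in scaling 10 were lower, and the median of all probes was -0.40. Stat3, which Csf3r and Il6st signal through, was 3.24, 3.39 and 3.04 in PreMegE and 0.99, 1.03 and 1.38 in CFUe (-2.09 ± 0.15, adjusted p 8.87e-09). From GMP to Mac1Gr1 12 of the 20 rose and 2 fell, beside 29.1% and 27.6% of all probes. With spike-in scaling, where the median of all probes was -1.86, 9 fell. Stat5a fell by 3.01 ± 0.14 from CFUe to Ter119 under the main scaling and by 4.40 with spike-in scaling.

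Of 13 inhibitors and STAT target genes 12 were tested. In CFUe 6 were lower than in PreMegE, beside 14.7% of all probes. In Ter119 9 were higher than in CFUe and 1 lower, beside 29.2% and 28% of all probes. With spike-in scaling, where the median of all probes was -1.35, these counts were 5 and 2. Socs3, an inhibitor that acts on Csf3r and gp130, was 2.43, 1.59 and 1.28 in PreMegE, -4.17, -3.97 and -3.46 in CFUe and 2.22, 2.19 and 2.22 in Ter119. It fell 49.6-fold and rose 67.4-fold over these steps (adjusted p 1.03e-09 and 3.79e-11). The granulocytic and B cell sums also rose from CFUe to Ter119, and their part in the rises of this list was not tested. Bcl2l1, the survival gene that Stat5 induces in erythroid cells, was 4.67, 4.69 and 4.92 in Ter119 against -2.26, -1.90 and -1.98 in CFUe and 0.99, 0.79 and 0.79 in Mac1Gr1. It was 112-fold higher in Ter119 than in CFUe (6.80 ± 0.15, adjusted p 1.02e-15) and higher than in Mac1Gr1 by 3.90 ± 0.15 (adjusted p 1.18e-12), and was higher in both with spike-in scaling, at 5.41 and 3.17.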

How the data were processed

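Transcript levels were measured on 21 Agilent whole mouse genome arrays of 1 colour, 3 for each of 7 fractions, with total RNA labelled with Cy3 and synthetic spike-in RNAs added. In the deposited scanner files, the authors give each spot a background-corrected, linear intensity from Agilent Feature Extraction 10.7.1.1. In the deposited series table, the authors give log2 values normalized between arrays, for which the study's methods name limma and SAM but no normalization method, and this table was an alternative.

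Each intensity was put on the log2 scale and the 75th percentile of its array, over 43379 non-control spots, was subtracted. Outlier spots (80 to 283 per array) were left out, repeated spots were averaged, and 0 spots were saturated. Tests used the 29532 of 41174 probes that stood well above background on every array of 1 or more fractions. Symbols came from RefSeq accessions through a RefSeq table of GRCm38.p6, and 26690 probes (64.8%) received 1. The arrays were annotated on mm9, and no genome coordinates of probes are given. Upstream sequences came from RefSeq, of which 7 of the 9 receptors had 1. Probe and protein sequences were not used here.

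A linear model with 1 mean per fraction was fitted by limma 3.58.1 (R 4.3.3, moderated two-sided tests), and p values were adjusted by Benjamini-Hochberg over all probes tested in each comparison. Shares of all probes called are given for the main scaling alone. The median residual SD was 0.262 with 14 degrees of freedom, and the number of arrays limits the precision. The procedure was tested on simulated data. Folds against a fraction without any array well above background are lower bounds, in which the dim arrays enter at their own signal or at the lowest signal well above background, whichever was higher. Figures were drawn with pandas 2.3.3 and matplotlib 3.10.9.

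The receptors, the gene lists and the tests were chosen with earlier results of these data known. Named genes are the 9 receptors, members of the lists of other receptors, ligands, signal transducers, inhibitors and cell type markers, and for each receptor the 3 genes with the highest Pearson correlation over the arrays. Csf2rb2 stands among those of Csf2rb. Igll1, Clec9a, Hbb-b1, Cblb, Cd68, Kit and Ly6g of these lists were not analysed here. Another gene of the list of other receptors is not reported here and was left out of that list's counts. The alternatives were quantile or spike-in scaling (7 of 10 sequences), background correction by normexp, no filter on dim probes, blocks for slide or replicate number, the series table, fitting only the fractions compared, the second brightest probe, dropping the 2-fold minimum, and omitting arrays one at a time. A block for sex-chromosome transcripts was added after the data had been seen. Scans of all arrays fell on 1 day.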

Additional observations from a re-analysis of the deposited data

Results flagged for a closer look

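These receptors changed differently in the erythroid and the myeloid lineage at the same step, by a limma test of the difference itself (erythroid change minus myeloid change, on the log2 scale). At the second step, from PreMegE to CFUe and from PreGM to GMP, the difference was 4.04 for Epor and 3.81 for Flt3. It was -3.01 for Csf2ra, -3.95 for Csf2rb (0.42, not called, by its second brightest probe), -4.22 for Csf2rb2 (-4.99 without CFUe array 3) and -3.54 for Csf3r.

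At the third step, from CFUe to Ter119 and from GMP to Mac1Gr1, the difference was -2.06 for Epor, 5.10 for Csf1r, 5.48 for Csf2rb (0.21, not called, by its second brightest probe), 5.30 for Csf2rb2 (6.08 without CFUe array 3), 4.81 for Csf3r and 1.24 for Il3ra, which was not called with a block for sex-chromosome transcripts (1.21) or when 1 of several arrays was left out, with 0.90 as the lowest value (without Ter119 array 3). The summed level of 12 granulocytic genes was 12.10 to 12.43 on the Ter119 arrays and 2.54 to 5.49 on the CFUe arrays, and its part in these differences was not tested. The differences of Csf3r include CFUe arrays on which it was not well above background, so their size is not bounded by the fit.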

How the results depend on the processing

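Spike-in scaling moved the results most, since it shifted the median of all probes, for example from 0.17 to -1.86 in Mac1Gr1 vs GMP and from -0.02 to 0.98 in GMP vs PreGM. With it 7 in place of 3 receptors were called in GMP vs PreGM. Signs turned for Csf2ra in PreMegE vs KLS (-0.31), PreGM vs KLS (-0.44) and PreMegE vs PreGM (0.13), Flt3 in CFUe vs PreMegE (-0.22), Mac1Gr1 vs GMP (-1.48) and CFUe vs GMP (-1.11), Il3ra in CFUe vs PreMegE (-0.0130), Ter119 vs CFUe (-0.23), GMP vs PreGM (0.96) and the second-step difference between lineages (-0.97), Il6ra in GMP vs PreGM (0.93), Mac1Gr1 vs GMP (-0.31) and the second-step difference (-1.51), and Epor (-0.78) and Csf1r (-1.15) in Mac1Gr1 vs GMP. Quantile scaling and the series table turned small, uncalled values of Csf2ra in PreMegE vs KLS (-0.0512 and -0.0507), PreGM vs KLS (-0.10 in both) and PreMegE vs PreGM (0.0516 and 0.0520) and of Il6ra in CFUe vs PreMegE (0.16 and 0.18). Normexp turned Csf1r (0.0073) and Il6ra (0.12) in CFUe vs PreMegE. The slide block turned Csf2ra in PreMegE vs PreGM (0.0177) and Il6ra in the second-step difference (-0.0475), as did the sex-chromosome block for the latter (-0.0859). The second brightest probe turned Csf2rb in CFUe vs PreMegE (0.67), Ter119 vs Mac1Gr1 (0.20) and the second-step difference (0.42), and Il6ra in that difference (-0.17). The cause was not tested.

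Of 1023 values of a receptor in a comparison under alternatives other than leaving out arrays, 940 kept their direction and their side of the threshold, and of 702 with an array left out 665 did. Leaving out arrays turned uncalled values, which ranged from -0.35 to 0.21 for Il3ra in PreMegE vs KLS, -0.12 to 0.0318 in GMP vs PreGM and -0.17 to 0.0848 in Mac1Gr1 vs GMP, from -0.26 to 0.12 for Il6ra in CFUe vs PreMegE, -0.17 to 0.0262 in GMP vs PreGM and -0.19 to 0.20 in the second-step difference, and from -0.0886 to 0.0227 for Csf2ra in PreMegE vs PreGM. With the replicate number as a block all 99 values kept their call, for example 8 receptors in Ter119 vs CFUe. Among arrays of the same replicate number, correlations of deviations from the fraction mean lay between -0.43 and 0.37. Arrays of unlike number were not compared, so whether the numbers pair the arrays was not decided. Signals near background limit the CFUe values of Csf3r, Csf2rb2, Csf1r, Csf1 and Il6st, and of the dimmest Csf2rb probe.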
